A study of Mus musculus with 2 samples.

Results

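The 7 genes described here encode costimulatory and checkpoint ligands of antigen-presenting cells, or receptors that control them: Cd80, Cd86, Icosl, Cd40, Cd83, Cd274 and Pdcd1lg2. Open chromatin around them was read from ATAC-seq of mouse monocytes, the phagocytes of the blood that can turn into macrophages and some dendritic cells. An open region was counted for a gene when its summit lay inside the gene body, or within 100 kb of a start of the gene that was also the nearest protein-coding transcription start site (TSS). By this rule 36 of the 28438 open regions of the series belonged to these 7 of 21853 protein-coding genes. The rule assigned regions by gene position, but only regions of the authors' conservative peak set, which had passed a reproducibility threshold. The 7 genes were chosen with earlier results of these data known.

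T cells need a second signal beside the antigen receptor, and these surface proteins give it or oppose it. CD80 and CD86 engage CD28, which activates T cells, and CTLA-4, which restrains them. ICOSL, the third B7 costimulatory protein here, engages ICOS. PD-L1, encoded by Cd274, and PD-L2, encoded by Pdcd1lg2, engage PD-1 and dampen T cells. CD40 receives CD40 ligand from helper T cells and signals through NF-kB. CD83 is a surface protein of activated antigen-presenting cells and opposes the MARCH1 ubiquitin ligase, which removes MHC class II and CD86 from the surface. Monocytes carry little of several of these proteins until an activating signal arrives.

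The samples were 1 group of 2 biological replicates of monocytes taken from peripheral blood of adult C57BL/6J mice aged 5 to 6 weeks, with 50000 cells in each library and no treatment or control group named. Both replicates carry the same donor identifier, and nothing says that they came from separate animals, which leaves a spread that may be technical. ATAC-seq marks DNA that the Tn5 transposase can reach, and the deposited values are peaks with a fold enrichment, the authors' linear ratio over background. No test between groups exists in this design, so every count and fold is a description, and the read depth of each library is unknown. In bulk cells, a region weakly open in every cell and a region open in a few cells cannot be told apart.

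The labelled cell type was checked against marker genes. Of 9 monocyte markers 8 had an open promoter, meaning a region that overlapped the 1 kb to either side of a protein-coding TSS, and among those read in both replicates Lyz2, Ly6c2, Cx3cr1 and Itgam had the highest mean folds, at 4.83 to 6.69. Fcgr1 had 6.18 in replicate 1 and no value in replicate 2. Of the other lists 3 of 7 dendritic cell, 2 of 7 B cell, 2 of 7 T cell, 1 of 5 NK cell, 0 of 6 neutrophil and 1 of 6 erythroid and platelet markers had an open promoter. These were the dendritic cell genes Clec9a, Flt3 and Ccr7, the B cell genes Pax5 and Cd79b, the T cell genes Cd3d and Cd5, the NK cell gene Prf1 and the erythroid gene Klf1. The Cd3d promoter region had a mean fold of 11.4 ± 0.393 and that of Clec9a 7.42 ± 0.746 (SD, n = 2 each). Both were above the mean of every monocyte marker. At Clec9a and Klf1, however, the peaks of both replicates overlapped the open region but stayed outside the 1 kb window. The open calls of Clec9a and Klf1 thus rest on the pooled region, and their replicate folds were read beyond that window. Antigen-presenting cells other than monocytes also use the 7 genes, and the part of such cells in the values below was not tested.

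Of the 7 genes 6 had an open promoter, against 46.6% of all 21853 protein-coding genes. All 7 had at least 1 region by the rule, against 58.2% of all genes. The 36 regions were spread unevenly, with 13 at Cd83, 8 at Pdcd1lg2, 6 at Cd86, 4 at Icosl, 2 at Cd80, 2 at Cd274 and 1 at Cd40. Of these, 6 lay at promoters, 17 in introns, 1 in an exon and 12 outside the promoter and body of their gene. The farthest of the 12, downstream of Cd83, lay in an exon of the noncoding gene Gm33195. Together the 36 regions covered 19.3 kb.

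**Figure D1:**
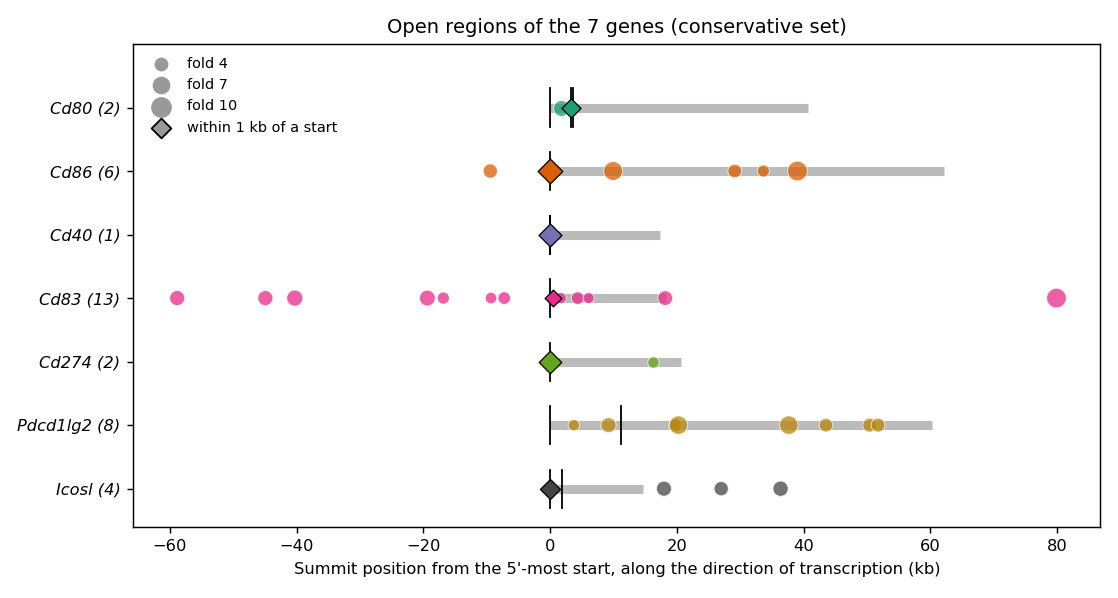
Position of the summit of each open region in kb from the upstream-most start of its gene, along the direction of transcription; grey bars are gene bodies, vertical ticks are starts, point size is the fold enrichment and diamonds are promoter regions. Cd83 has 13 regions on both sides of the gene, Pdcd1lg2 has 8 inside the gene and none at a start, and Cd40 has only its promoter.

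The sequences at the promoters are shown first, because the promoter is the feature that 6 of the 7 genes share. They are RefSeq sequence of GRCm38.p6 on the strand of the gene, limited to the DNA within 100 bp of the summit and outside annotated exons. The Cd86 summit, at 36666075, lay just inside the exon, so its stretch stands beside the summit. Capitals mark whole matches, on either strand, to the motif strings described further on.
Cd86 promoter, chr16:36666082-36666175: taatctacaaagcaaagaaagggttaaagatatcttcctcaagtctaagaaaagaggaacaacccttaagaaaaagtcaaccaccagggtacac
Cd80 promoter, chr16:38458757-38458932: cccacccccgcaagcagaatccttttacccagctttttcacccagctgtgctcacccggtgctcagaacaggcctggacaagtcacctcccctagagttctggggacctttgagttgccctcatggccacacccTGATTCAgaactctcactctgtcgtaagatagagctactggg
Icosl promoter, chr10:78069189-78069301: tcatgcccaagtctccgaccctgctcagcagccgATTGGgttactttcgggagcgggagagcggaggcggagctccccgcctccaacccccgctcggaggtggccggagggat
Cd40 promoter, chr2:165055519-165055626: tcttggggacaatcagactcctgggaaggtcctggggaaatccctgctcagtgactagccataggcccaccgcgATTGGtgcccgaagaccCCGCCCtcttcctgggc
Cd274 promoter, chr19:29367391-29367454: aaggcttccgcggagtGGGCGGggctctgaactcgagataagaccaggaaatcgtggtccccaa
The Cd40 and Cd274 sequences hold the GC box GGGCGG near the summit, Cd40 and Icosl hold an inverted CCAAT box, and the Cd86 sequence holds none of the strings searched. The promoter of Cd83 is not shown, because exons cover the whole stretch around its summit, and Pdcd1lg2 had no promoter region.

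The next set shows, for each gene that has one, the region outside the promoter with the highest fold in the pooled conservative set, again within 100 bp of the summit.
Cd86 region 1, chr16:36626941-36627141: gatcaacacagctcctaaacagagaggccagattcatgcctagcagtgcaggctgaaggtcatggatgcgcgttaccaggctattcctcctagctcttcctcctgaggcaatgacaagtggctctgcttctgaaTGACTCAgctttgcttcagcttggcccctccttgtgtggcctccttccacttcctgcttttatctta
Cd80 region 1, chr16:38457248-38457448: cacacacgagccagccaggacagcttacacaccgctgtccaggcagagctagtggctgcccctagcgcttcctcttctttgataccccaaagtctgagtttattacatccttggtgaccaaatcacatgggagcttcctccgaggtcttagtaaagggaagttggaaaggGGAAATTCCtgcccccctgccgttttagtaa
Icosl region 4, chr10:78105572-78105772: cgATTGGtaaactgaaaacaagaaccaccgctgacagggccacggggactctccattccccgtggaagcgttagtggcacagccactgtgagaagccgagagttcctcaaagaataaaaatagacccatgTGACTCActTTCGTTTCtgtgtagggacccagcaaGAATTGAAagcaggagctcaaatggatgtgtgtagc
Cd83 region 13, chr13:43864590-43864668: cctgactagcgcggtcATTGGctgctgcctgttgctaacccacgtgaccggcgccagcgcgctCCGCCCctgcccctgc
Cd274 region 2, chr19:29383512-29383712: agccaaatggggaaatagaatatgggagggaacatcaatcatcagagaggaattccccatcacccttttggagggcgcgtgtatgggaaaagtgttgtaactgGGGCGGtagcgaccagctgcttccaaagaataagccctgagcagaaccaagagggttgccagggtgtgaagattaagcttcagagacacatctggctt
Pdcd1lg2 region 5, chr19:29448483-29448683: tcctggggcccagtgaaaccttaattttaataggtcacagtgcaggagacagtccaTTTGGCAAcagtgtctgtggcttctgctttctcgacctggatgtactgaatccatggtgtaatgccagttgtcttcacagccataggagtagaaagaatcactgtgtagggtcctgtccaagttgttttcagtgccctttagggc
Regions are numbered by their order along the chromosome. The AP-1 string stands in the Cd86 and Icosl sequences, the NF-kB string in that of Cd80 and the C/EBP string in that of Pdcd1lg2.

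Cd86, on the minus strand of chromosome 16 from 36603869 to 36666081, had the strongest promoter of the 7 genes. Its promoter fold was 8.94 in replicate 1 and 7.29 in replicate 2, a mean of 8.12 ± 1.17 (SD, n = 2). The region ran from 36665751 to 36666225 and stood above 75.4% of all regions in the pooled fold. Inside the gene, region 1 lay 39.0 kb downstream of the start in an intron and reached 9.98 in replicate 1 and 10.3 in replicate 2. Region 4, 9.94 kb downstream and also intronic, had 10.9 in replicate 1 and 7.55 in replicate 2. These intronic regions exceeded the promoter in both replicates, and region 1 ranked above 90.6% of all regions, the highest place of any of the 36. The remaining intronic regions of Cd86, regions 2 and 3, were weaker, with folds of 4.04 and 5.41 in replicate 1 and of 3.99 and 4.46 in replicate 2. Region 6, 9.45 kb upstream of the start, was found in replicate 2 alone, at 5.28.

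Cd80, on the plus strand of the same chromosome from 38455561 to 38496335, lies 1789 kb from Cd86 and had only 2 regions. Its promoter region had folds of 4.89 in replicate 1 and 5.41 in replicate 2, a mean of 5.15 ± 0.367 (SD, n = 2). This region was not at the upstream-most start of the gene, from which the nearest region was 1547 bp away, but at a pair of internal starts at 38458933 and 38459118. Region 1 lay 1585 bp upstream of the nearer of these, in an intron of the longer transcript, and had 7.53 in replicate 1 and 6.48 in replicate 2. It was stronger than the promoter region in each replicate, and the regions together spanned 1.89 kb of a gene body of 40.8 kb. No region of the conservative set was found in the rest of the Cd80 gene body. The replicated set of the series, which keeps more peaks under a weaker rule, added 4 intronic regions there. Those at 17.4 and 24.7 kb downstream were found in both replicates, with 3.96 and 5.45 in replicate 1 and 4.80 and 3.64 in replicate 2. The region at 24.3 kb was found in replicate 2 alone, at 2.56, and that at 18.2 kb in neither.

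Icosl, on chromosome 10 from 78069302 to 78083913, had a promoter region with folds of 4.62 in replicate 1 and 6.18 in replicate 2, a mean of 5.40 ± 1.11 (SD, n = 2). At 1039 bp it was the second widest of the 36 regions, and it covered the upstream start. The other start of Icosl, at 78071161, lay 1017 bp from the region, just outside the promoter window. Beyond the end of the gene were regions 2, 3 and 4, at 16.1, 25.1 and 34.5 kb downstream of the nearest Icosl start. Replicate 1 had folds of 6.48, 6.70 and 6.83 there, and replicate 2 had 5.34, 4.56 and 5.28. All 3 were higher in replicate 1, while the promoter was higher in replicate 2, so the order of the promoter and the distal regions differed between the replicates.

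Cd274, on chromosome 19 from 29367455 to 29388095, had a promoter fold of 7.62 in replicate 1 and 6.32 in replicate 2, a mean of 6.97 ± 0.923 (SD, n = 2). Only Cd86 had a higher mean, and the difference was smaller than the SD of the Cd86 promoter. Cd274 region 2, 16.2 kb downstream in an intron, was among the weakest regions of the series in the pooled set, above 3.59% of all regions, with 3.74 in replicate 1 and 3.96 in replicate 2. An antisense transcript, AC119228.1, also covers this place, and an open region has no strand to assign it by.

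Pdcd1lg2, the neighbour of Cd274 at a distance of 22.8 kb, runs from 29410919 to 29471161 and showed the opposite layout. It had 8 intronic regions and no region within 1 kb of either annotated start. The nearest region was 1504 bp from the start at 29422059 and 3555 bp from the start at 29410919, and neither replicate alone had a peak within 1 kb of them. With the promoter window widened to 2 kb the gene would be called open, which makes 7 of 7, so its closed call rests on the window. The share of all genes open at 2 kb is not given. The strongest of its regions were region 4, with 8.20 in replicate 1 and 8.86 in replicate 2, and region 5, with 6.95 in replicate 1 and 9.45 in replicate 2. They lay 9.12 and 26.5 kb downstream of the inner start. Region 2, just upstream of the inner start at 1927 bp, had 7.04 in replicate 1 and 5.46 in replicate 2. Regions 1, 6, 7 and 8 had folds of 4.18 to 5.71 in replicate 1 and of 4.35 to 4.98 in replicate 2. Region 3 was found in replicate 1 alone, at 4.67. The 10 regions of the PD-1 ligand pair spanned 95.7 kb.
The sequence at Pdcd1lg2 region 4 is shown because it holds the PU.1 string 9.5 bp from the summit, and that at region 6 because it holds the joint ETS-IRF string.
Pdcd1lg2 region 4, chr19:29431075-29431275: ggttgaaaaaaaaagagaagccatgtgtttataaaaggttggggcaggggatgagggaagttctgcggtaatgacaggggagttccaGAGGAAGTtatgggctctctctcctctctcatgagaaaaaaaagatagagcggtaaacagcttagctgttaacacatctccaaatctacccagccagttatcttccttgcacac
Pdcd1lg2 region 6, chr19:29454354-29454464: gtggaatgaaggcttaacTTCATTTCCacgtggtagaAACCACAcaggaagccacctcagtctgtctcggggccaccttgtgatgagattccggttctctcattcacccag

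Cd40, on chromosome 2 from 165055627 to 165072948, had a single region, at its promoter. The fold was 6.72 in replicate 1 and 6.69 in replicate 2, a mean of 6.70 ± 0.0176 (SD, n = 2), the closest match between replicates among the 6 promoters. The summit stood 8 bp upstream of the start. No region was found elsewhere in the 17.3 kb gene body or in the flanking DNA nearest to Cd40. The looser replicated set of the series, which keeps more peaks under a weaker rule, added 2 further regions at this gene. In the replicates' own pseudoreplicated sets the intronic one was found in replicate 1 alone, at 3.20, and the upstream one in neither.

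Cd83, on chromosome 13 from 43784775 to 43803132, had the weakest open promoter and the most regions. The promoter region began 238 bp downstream of the start with its summit at 459 bp, and had 3.42 in replicate 1 and 4.29 in replicate 2, a mean of 3.85 ± 0.615 (SD, n = 2). The other 12 regions spanned 7 places upstream and 5 downstream, and all 13 lay within 139 kb. Of all protein-coding genes 77, or 0.352%, had as many regions or more.
The upstream group reached 58.9 kb from the start. Regions 1 to 4 had folds of 5.76 to 6.72 in replicate 1 and 4.50 to 6.78 in replicate 2, and regions 6 and 7, nearer the gene, had 3.64 and 4.40 in replicate 1 and 3.68 and 4.12 in replicate 2. Region 5 was found in replicate 2 alone, at 4.08. The stretch nearest the promoter was thus the weaker one.
Within the gene, regions 9, 10 and 11 were intronic and weak, with 3.36 to 4.49 in replicate 1 and 3.09 to 4.55 in replicate 2. Region 12, in the last exon, had 4.64 in replicate 1 and 6.63 in replicate 2.
Region 13 was the strongest of Cd83 and the farthest of all 36, 79.9 kb downstream, with 10.3 in replicate 1 and 9.94 in replicate 2. It lies at the annotated start of the long noncoding RNA gene Gm33195, which begins at 43864669, and the DNA around its summit is 69.7% G and C. The rule gave it to Cd83 because noncoding genes do not count among the starts.
The sequences of region 7 and region 11 are shown because region 7 holds 4 of the motif strings and region 11 holds a pair of C/EBP strings.
Cd83 region 7, chr13:43777440-43777640: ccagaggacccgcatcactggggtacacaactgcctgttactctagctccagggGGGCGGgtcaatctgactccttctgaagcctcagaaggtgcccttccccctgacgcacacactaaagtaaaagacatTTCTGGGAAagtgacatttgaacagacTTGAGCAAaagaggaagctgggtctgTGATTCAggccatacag
Cd83 region 11, chr13:43790743-43790943: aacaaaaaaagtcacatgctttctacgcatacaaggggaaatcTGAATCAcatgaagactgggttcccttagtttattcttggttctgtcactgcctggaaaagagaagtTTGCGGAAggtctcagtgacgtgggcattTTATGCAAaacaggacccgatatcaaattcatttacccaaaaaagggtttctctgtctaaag

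The number of regions partly follows how much DNA the rule gives a gene. That stretch was 184 kb for Cd83, 83.0 kb for Pdcd1lg2, 76.2 kb for Cd86, 57.0 kb for Icosl, 42.2 kb for Cd80, 28.0 kb for Cd40 and 21.8 kb for Cd274. Per 100 kb, Pdcd1lg2 had 9.64 regions, Cd274 9.17, Cd86 7.88, Cd83 7.05, Icosl 7.02, Cd80 4.74 and Cd40 3.58, against a median of 1.11 over all genes. By this measure Cd83 no longer led, and 13.0% of all genes were as dense or denser. For Pdcd1lg2 that share was 7.97% and for Cd40 28.1%.

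Ordered by the mean of the replicates, the promoters ran Cd86, Cd274, Cd40, Icosl, Cd80 and Cd83. Of the neighbours in this order, Cd86 and Cd274, Cd274 and Cd40, and Icosl and Cd80 differed by less than the larger of their replicate SDs. The lower replicate of Cd40, at 6.69, was above both replicates of Icosl, Cd80 and Cd83, and the higher replicate of Cd83, at 4.29, was under both replicates of every other open promoter. The CpG ratio, observed over expected CpG, was taken within 500 bp of the upstream-most start of each gene. It was 0.692 at Icosl, 0.638 at Cd83, 0.555 at Cd274, 0.356 at Cd40, 0.316 at Cd86, 0.278 at Cd80 and 0.170 at Pdcd1lg2. At Cd80 this start is not the one with the promoter region. The strongest promoter, that of Cd86, was thus CpG-poor and the weakest, that of Cd83, CpG-rich.

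**Figure D2:**
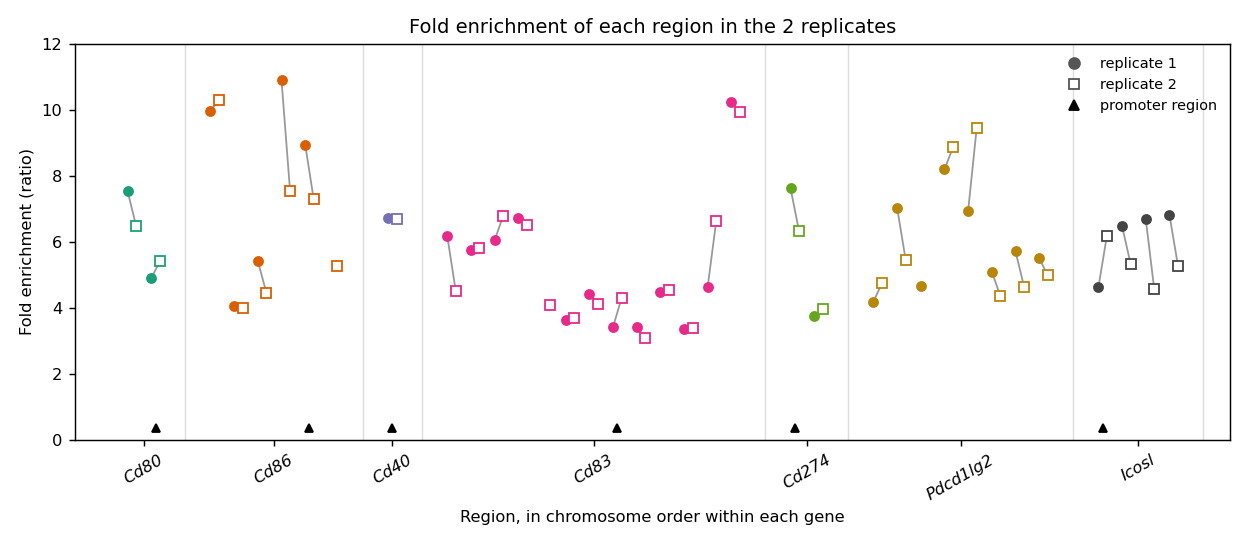
Fold enrichment, as a linear ratio, of each of the 36 regions in replicate 1 (filled circles) and replicate 2 (open squares), ordered along the chromosome within each gene; lines join the replicates of a region and triangles mark promoter regions. The strongest values, near 10, are at Cd86 region 1, Cd86 region 4 in replicate 1 and Cd83 region 13, and the Cd83 promoter sits near 4.

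As a group the regions were no stronger than the rest of the series. Their median fold was 5.67 (quartiles 4.45 and 7.04), against 6.49 (quartiles 5.16 and 8.44) over all regions, and 11 of the 36 reached the median of all regions. At promoters the medians were 6.37 for the 7 genes and 7.64 for all regions, and outside promoters 5.67 and 6.06. Promoters made up 16.7% of the 36 regions, against 37.2% of all regions. The 27 regions of the 9 MHC class II genes, a list that also holds Cd74 and Ciita, had a median fold of 4.95, and 40.7% of them were promoters. The median width was 507.5 bp at the 7 genes, 417 bp at the MHC class II genes and 448 bp over all regions, and the median G and C content was 51.2%, 49.8% and 53.7%.

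Replicates were compared in each replicate's own, more permissive pseudoreplicated set. Of the 36 regions 33, or 91.7%, were found in both replicates, against 91.1% of all regions. The exceptions were Cd86 region 6 and Cd83 region 5, found in replicate 2 alone, and Pdcd1lg2 region 3, found in replicate 1 alone. Over the 33 shared regions replicate 2 was higher at 14 and replicate 1 at 19. At the 7 genes the log2 ratio, replicate 2 over replicate 1, was -0.04 at the median with an SD of 0.27, against -0.03 and 0.24 over all shared regions. The summits of the replicates were a median of 18 bp apart, and at most 89 bp.
In the replicates' own thresholded sets, which are stricter, 19 of the 36 regions were kept in both, 52.8% against 50.3% of all regions. The authors' IDR score, which ranks how well a peak repeats, was at its top of 1000 for 20 of the 36 regions of the pooled conservative set, 55.6% against 54.6% of all regions. In the replicates' own thresholded sets the replicates differed at Cd83, with 6 regions in replicate 1 and 12 in replicate 2. At the other genes they differed by at most 1 region, with 4 and 4 at Cd86, 5 and 5 at Pdcd1lg2, 3 and 2 at Icosl and 1 and 2 at Cd80 in replicates 1 and 2. Replicate 1 alone kept 3 of the 6 open promoters, without those of Cd80, Cd83 and Icosl, and replicate 2 alone kept all 6. The promoter folds of those 3 genes were the lowest of the 6 in both replicates. The own thresholded sets hold 17604 regions in replicate 1 and 18057 in replicate 2, against 28438 in the conservative set. The shares of all regions and of all open promoters kept in each replicate alone are not given. The counts by replicate thus have no background beside them.

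**Figure D3:**
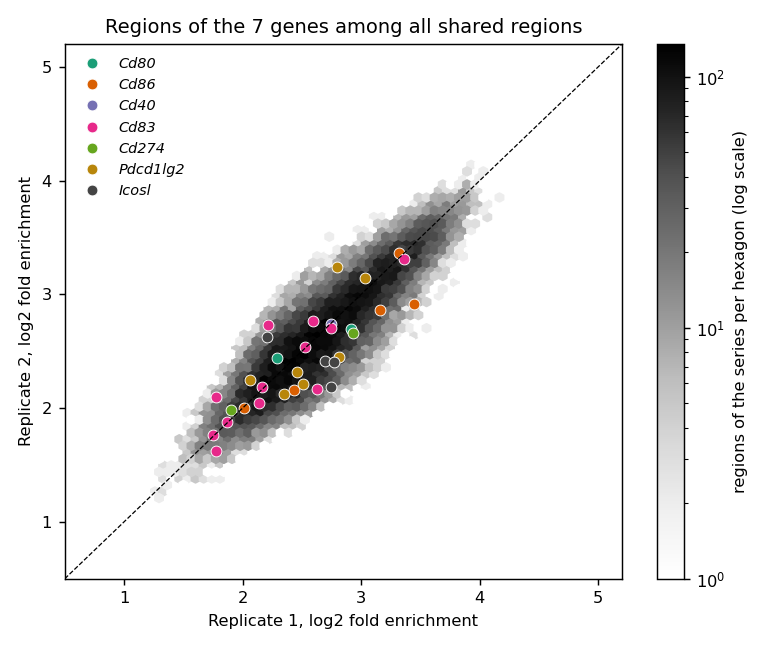
Log2 fold enrichment in replicate 1 against replicate 2 at all regions found in both replicates (grey hexagons, darker for more regions) with the 33 shared regions of the 7 genes as coloured points; the dashed line marks equal values. The coloured points lie within the grey cloud on both sides of the line.

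Short motif strings were searched on both strands within 100 bp of each summit. The AP-1 string TGANTCA was in 8 of the 36 regions, 22.2% against 8.47% of all regions. Outside promoters it was in 7 of 30, 23.3% against 11.3%, and within 50 bp of the summit it was in 3 of the 36, 8.33% against 5.07% of all regions. By gene the 8 were 3 at Cd83, 2 at Pdcd1lg2 and 1 each at Cd80, Cd86 and Icosl. The C/EBP string TTGCNNAA was in 6 regions, 16.7% against 10.8%, and 4 of these were at Cd83. The PU.1 string GAGGAAGT was in 4 regions, 11.1% against 8.94%, at Cd83, Pdcd1lg2 and Icosl. AP-1, C/EBP and PU.1 are transcription factor families that act in myeloid cells. The string counts are small, and a match is a description of the letters and no measure of binding.
The IRF tandem string GAANNGAA was in 4 regions, 11.1% against 17.1% of all regions. The joint ETS-IRF string GGAANTGAA was in 2, 5.56% against 4.30%, both at Pdcd1lg2, and each of these matches also holds the IRF tandem letters. The NF-kB string GGANTTTCC was in 1 region, Cd80 region 1, or 2.78% against 0.876%. The STAT string TTCNNGGAA was in 2 regions, both at Cd83, 5.56% against 2.79%, and the RUNX string TGTGGTT in 3, 8.33% against 7.20%. The KLF/SP string GGGCGG was in 8 regions, 22.2% against 27.3%. Outside promoters its share was 16.7% against 10.3%, and within 50 bp of the summit 22.2% against 18.5%, so its order depends on the regions and the window compared. The NF-Y string CCAAT was in 7, 19.4% against 26.9%, and outside promoters 16.7% against 22.2%. No string was found in 9 of the 36 regions, against 27.1% of all regions.

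The ligands' relatives and partners gave the setting. Of 18 other ligands of antigen-presenting cells 8 had an open promoter, 44.4%, close to the 46.6% of all genes. The strongest were Lgals9, which encodes galectin-9, at 10.04 ± 1.66, Icam1, an adhesion ligand, at 6.91 ± 0.401, Cd48 at 6.61 ± 0.544 and Nectin2 at 6.50 ± 0.311 (SD, n = 2 each). Vtcn1, Tnfsf4 and Tnfsf15, which encode B7-H4, OX40 ligand and TL1A, were among 4 with no region in the conservative set. Replicate 1's own pseudoreplicated set held a peak of 2.93 at the Tnfsf15 promoter.
Of 17 receptors, which T cells carry for the most part, 3 had an open promoter, 17.6%. These were Havcr2, which encodes TIM-3, at 8.50 ± 0.463, Cd28 at 7.40 ± 1.50 and Tnfrsf9, which encodes 4-1BB, at 6.15 ± 1.30 (SD, n = 2 each). Icos, Cd40lg and Tnfrsf4 were among 6 with no region in the conservative set, though replicate 2's own pseudoreplicated set held a peak of 4.75 at the Icos promoter.
Of 17 genes that carry the CD40 signal 16 had an open promoter, 94.1%, with 69 regions in all. Ikbkg, the regulatory subunit of the IkB kinase, had 15.1 ± 0.747, the adaptor Traf2 10.9 ± 1.37, the kinase Chuk 9.96 ± 0.416 and the ubiquitin ligase Birc2 9.05 ± 0.285 (SD, n = 2 each).
Of 10 regulators of the ligands 8 had an open promoter. Jak1, a kinase of the interferon receptors, had 14.3 ± 0.890, Cmtm6, which stabilises PD-L1, 9.62 ± 0.632, and the interferon-gamma receptor gene Ifngr1 7.33 ± 0.905 (SD, n = 2 each). Cmtm4, a relative of Cmtm6, had no region in the conservative set and a promoter peak of 3.17 in replicate 2's own pseudoreplicated set.
Of 9 MHC class II genes 8 had an open promoter, 88.9%, led by the peptide loading genes H2-DMa at 9.14 ± 0.207 and H2-DMb1 at 5.60 ± 0.837 (SD, n = 2 each).

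**Figure D4:**
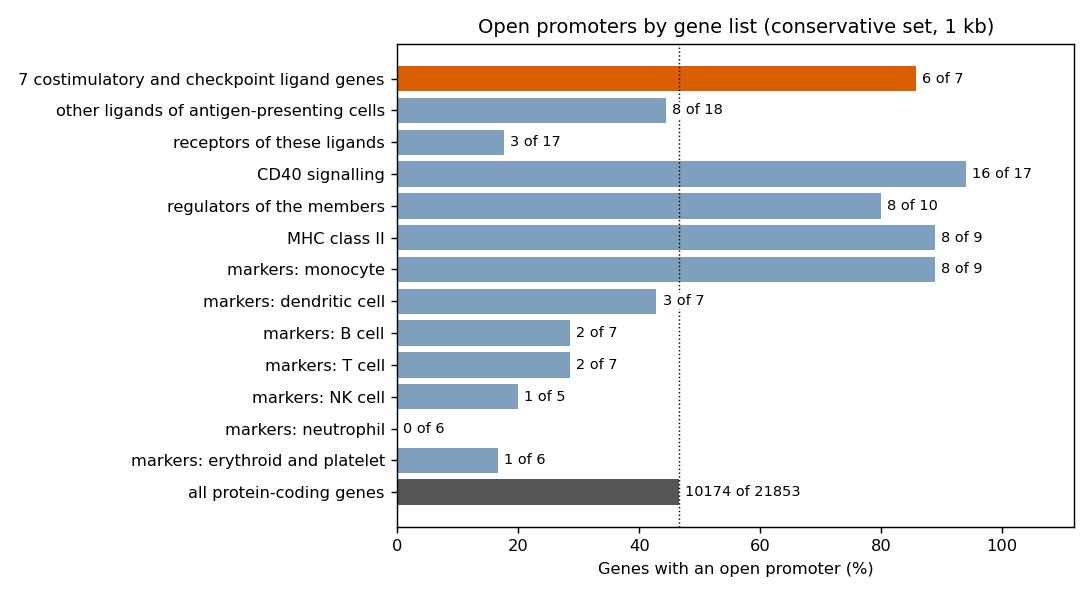
Share of genes with an open promoter, in percent, for the 7 genes, for related gene lists and marker lists, and for all protein-coding genes, with counts at the bar ends; the dotted line is the share of all protein-coding genes, 46.6%. The 7 genes stand at 6 of 7, the CD40 signalling genes at 16 of 17 and the receptors at 3 of 17.

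The rule leaves out regions nearer to another gene. Within 100 kb of a start but nearer to another gene lay 11 regions at Cd274, 8 of them counted for Pdcd1lg2, 10 each at Cd80 and Icosl, 7 at Pdcd1lg2, 4 at Cd86, 3 at Cd40 and 0 at Cd83. No region lay between 100 and 200 kb with one of the 7 genes nearest. The looser replicated set added 32 regions, of which 8 were at Cd86, 7 at Pdcd1lg2, 4 each at Cd80, Cd83 and Icosl, 3 at Cd274 and 2 at Cd40. These had a median fold of 3.17, below the 3.36 of Cd83 region 11, the weakest of the 36. Several of the added regions were above that value, up to 4.35 at Cd86, so the folds of the added regions and of the 36 overlap. Of the 68 regions of the 7 genes in the replicated set, 43 were found in both replicates' own pseudoreplicated sets. The matching share over all 55857 regions of the replicated set is not given, so this count has no background beside it.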

How the data were processed

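The data were ATAC-seq peak lists of 2 replicates in 1 group, on mm10 per the labels. The authors deposited, for each peak, a fold enrichment (a linear ratio over background), a −log10 p-value and a score, per the file headers and values. Aligner and peak caller: not given in the sources used here. No fold was rescaled. The main list was the authors' conservative set, thresholded by IDR (reproducibility of peak ranks) and made from both replicates. Overlapping peaks (1 bp or more) were merged, each region taking its peaks' highest fold and the summit with the smallest p. Replicate folds are the highest of overlapping peaks in each replicate's pseudoreplicated set. Gene models came from GENCODE M21 and sequence from RefSeq GRCm38.p6, and 0 regions ran past a chromosome end. Percentages beside members are over all regions or all protein-coding genes. No test was run. Named beside the 7 genes are genes whose body holds a summit and, per list, up to 4 with the strongest promoter and up to 3 with no region; some of these are not reported here. The 7 genes, the lists and the strings were chosen with earlier results of these data known. Region assignment was tested on simulated data. Python 3.11.15, numpy 2.4.6, pandas 2.3.3, matplotlib 3.10.9 and samtools 1.23.1 were used.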

Additional observations from a re-analysis of the deposited data

How the results depend on the processing

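Of 49 alternative values of the main counts and medians 36 were close to the reported value. A count was called close within 1.5 times the reported value in either direction, so 27 regions in place of 36 still passed. The 36 regions became 68 in the replicated set of the series, 64 in the pseudoreplicated set and 11 when only folds at or above the median of all regions were kept, and 21 to 27 when either replicate was left out. Their median fold of 5.67 became 4.06, 4.07 and 8.50 in the first 3 of these settings and 5.81 to 6.72 without either replicate. The 33 regions found in both replicates became 19 in the replicates' own thresholded sets and 11 at folds at or above the median. Leaving out a replicate gives no such count. The cut on fold could only lower the counts and raise the median fold, so the direction of those changes was set beforehand. The 6 open promoters became 3 without replicate 2 and stayed 6 without replicate 1, 5 with the upstream-most start alone and 7 with a 2 kb window. The 8 open promoters of other ligands became 14 in both looser sets and 7 to 8 when either replicate was left out. The looser sets hold 55857 (replicated) and 52671 (pseudoreplicated) regions, against 28438 in the conservative set. Leaving out a replicate meant reading the other replicate's own thresholded set. That set is stricter and holds 17604 regions in replicate 1 and 18057 in replicate 2. Those values thus also reflect the change of peak list. No share of all genes is given for any of these other sets or for the 2 kb window, so those promoter counts have no background beside them. The motif counts depended on the window. Within 50 bp of the summit the AP-1 string was in 3 of the 36 regions, 8.33% against 5.07% of all regions. The NF-Y string was in 4, 11.1% against 17.0%. The IRF tandem and STAT strings were in 1 each, 2.78% against 9.30% and 1.29%. The ETS-IRF, NF-kB and RUNX strings were in 0, against 2.75%, 0.433% and 4.40%. Within 150 bp the C/EBP string was in 10, 27.8% against 14.3%, and the IRF tandem string in 8, 22.2% against 24.0%. The KLF/SP string was in 8 in every window, 22.2% against 18.5%, 27.3% and 31.4% within 50, 100 and 150 bp. No paired analysis was possible because there is 1 group. Read depth is unknown, so a missing region may be one not detectable at this depth.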
